A study of Mus musculus with 9 samples.

Results

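The genes described here are 10 members of the bone morphogenetic protein (BMP) and activin signalling system, out of 23944 genes in the deposited tables. They were taken by symbol, as the activin subunit genes Inhba and Inhbb, the ligand genes Bmp2, Bmp4 and Bmp6, the inhibitory Smad genes Smad6 and Smad7, and the target genes Id1, Id2 and Id3. All 10 were found, and all 10 were among the 15834 genes that passed the filter on low counts. The libraries, 3 in each of 3 groups, were made from RNA of the whole left lung of adult wild type mice. Naive lungs were those of C57BL/6 mice. Cold-ischemia grafts were C57BL/6 lungs that spent 24 h in storage at 0 °C and 2 h under reperfusion in Balb/C recipients. Shock grafts had the same storage, transplantation and reperfusion, but their donors had first spent 4 h in hypovolemic shock, at a mean arterial pressure of 15 ± 5 mmHg, and 20 h in recovery. No group of grafts without cold storage, and none of shock without transplantation, is among the libraries, and a graft holds cells of the donor lung together with blood cells of the recipient.

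BMPs and activins are secreted dimers of the TGF-β superfamily that bind pairs of serine/threonine kinase receptors on the cell surface. BMP receptors act through SMAD1, SMAD5 and SMAD9, activin and TGF-β receptors through SMAD2 and SMAD3, and both kinds of complex include SMAD4. Id1, Id2 and Id3, which encode helix-loop-helix proteins that bind E proteins and keep them off DNA, are classical BMP targets, and Smad6 and Smad7 are induced by the pathway and inhibit it. In lung endothelium, BMP signalling is tied to vessel quiescence.

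Total counts ran from 18913487 (naive replicate 2) to 34986276 (naive replicate 3). For 2 graft libraries the sources conflict: by title they are cold-ischemia replicate 2 and shock replicate 3, and the deposited tables place each in the opposite graft group. Groups here follow the titles unless the tables are named, and the comparison of all 6 grafts with the 3 naive lungs is given first because both libraries are grafts either way. Only the naive libraries carry labels that point to a record outside the series. In every comparison with naive lungs, group and batch therefore cannot be told apart. Shock replicate 2 stood apart from the other grafts. Its summed level of 18 endothelial markers was the lowest (3802 CPM, counts scaled to library size, against 5704 to 6545 in the other 5 grafts). Among grafts it also had the lowest fibroblast, smooth muscle and pericyte sum (2356 CPM) and monocyte and macrophage sum (5130 CPM). Its sum of neutrophil markers was the highest (3598 CPM). The 12 markers of alveolar and airway epithelium summed to 38370 to 48180 CPM in naive lungs and 33560 to 49410 CPM in grafts, so lung epithelial transcripts were abundant in every library. The labels do not name the animals, and p-values therefore measure only the spread between these samples.

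Promoter sequences were available from RefSeq (GRCm38.p6) for 7 of the 10 genes: Inhba, Inhbb, Bmp4, Bmp6, Smad6, Id2 and Id3. Among them, 3 are shown for the results that follow: that of Inhbb, the gene with the largest rise, that of Smad6, the gene of the 7 with the largest fall, and that of Id2, the ID gene that did not fall. Each is the stretch upstream of the transcription start on the minus strand, 5′ to 3′, and capitals mark matches to a motif. The Inhbb stretch is chr1:119422249-119422498, the Smad6 stretch is chr9:64022056-64022309 and runs to the 4th base of the transcript, and the Id2 stretch is chr12:25096093-25096342.
Inhbb: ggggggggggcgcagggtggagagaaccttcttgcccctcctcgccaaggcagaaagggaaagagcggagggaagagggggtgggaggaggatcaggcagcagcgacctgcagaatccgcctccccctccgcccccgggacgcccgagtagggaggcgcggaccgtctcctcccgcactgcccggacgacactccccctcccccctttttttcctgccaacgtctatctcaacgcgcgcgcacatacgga
Smad6: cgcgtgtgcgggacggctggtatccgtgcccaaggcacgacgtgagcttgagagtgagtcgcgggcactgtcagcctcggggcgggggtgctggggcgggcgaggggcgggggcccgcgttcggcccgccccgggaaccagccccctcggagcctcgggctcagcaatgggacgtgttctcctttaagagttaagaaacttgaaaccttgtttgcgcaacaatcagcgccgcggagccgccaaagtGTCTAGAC
Id2: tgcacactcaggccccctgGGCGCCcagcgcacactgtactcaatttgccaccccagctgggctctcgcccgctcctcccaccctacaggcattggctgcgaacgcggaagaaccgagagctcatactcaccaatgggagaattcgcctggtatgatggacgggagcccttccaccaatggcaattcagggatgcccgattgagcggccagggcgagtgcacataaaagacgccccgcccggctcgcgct
Motifs were searched on both strands in windows that also hold the first bases of the transcript. GGCGCC, the GC-rich element of BMP-regulated SMADs, was found in Id2 alone of the 7 genes, starting at -231 from the start site, and is held by 11.9% of all 32851 promoters of the table. The palindrome GTCTAGAC, a SMAD element that was added to the search after the promoters had been read, spans the start site of Smad6 from -4 and is held by 0.213% of promoters. CACGTG, an E-box, was found in Bmp4 at -188 and Bmp6 at -127, against 7.15% of promoters. TGANTCA (AP-1) and TGACGTCA (CRE) were found in none of the 7, against 7.81% and 1.79% of promoters. None of the motifs overlapped another in the 7 windows.

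In grafts, the activin subunits and Bmp2 were higher than in naive lungs, while Bmp4, Bmp6, both inhibitory Smads, Id1 and Id3 were lower. With edgeR's quasi-likelihood test over all genes, 9 of the 10 genes passed an adjusted p of 0.05 in all grafts against naive lungs, 3 higher and 6 lower. Of all genes tested, 41.8% passed, 22.1% as higher and 19.7% as lower. The median log2 fold change of the 10 genes was -0.47 (-0.05 over all genes). In 7 of the 10 genes no graft library overlapped a naive library in CPM, which was so for 40.9% of all genes tested. These 7 were Inhba, Inhbb and Bmp2, above the naive range, and Bmp6, Smad6, Id1 and Id3, below it. On the deposited FPKM, which carries no TMM scaling, 9 of the 10 genes did not overlap, against 50.5% of all genes tested, with Id2 the exception.

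**Figure D1:**
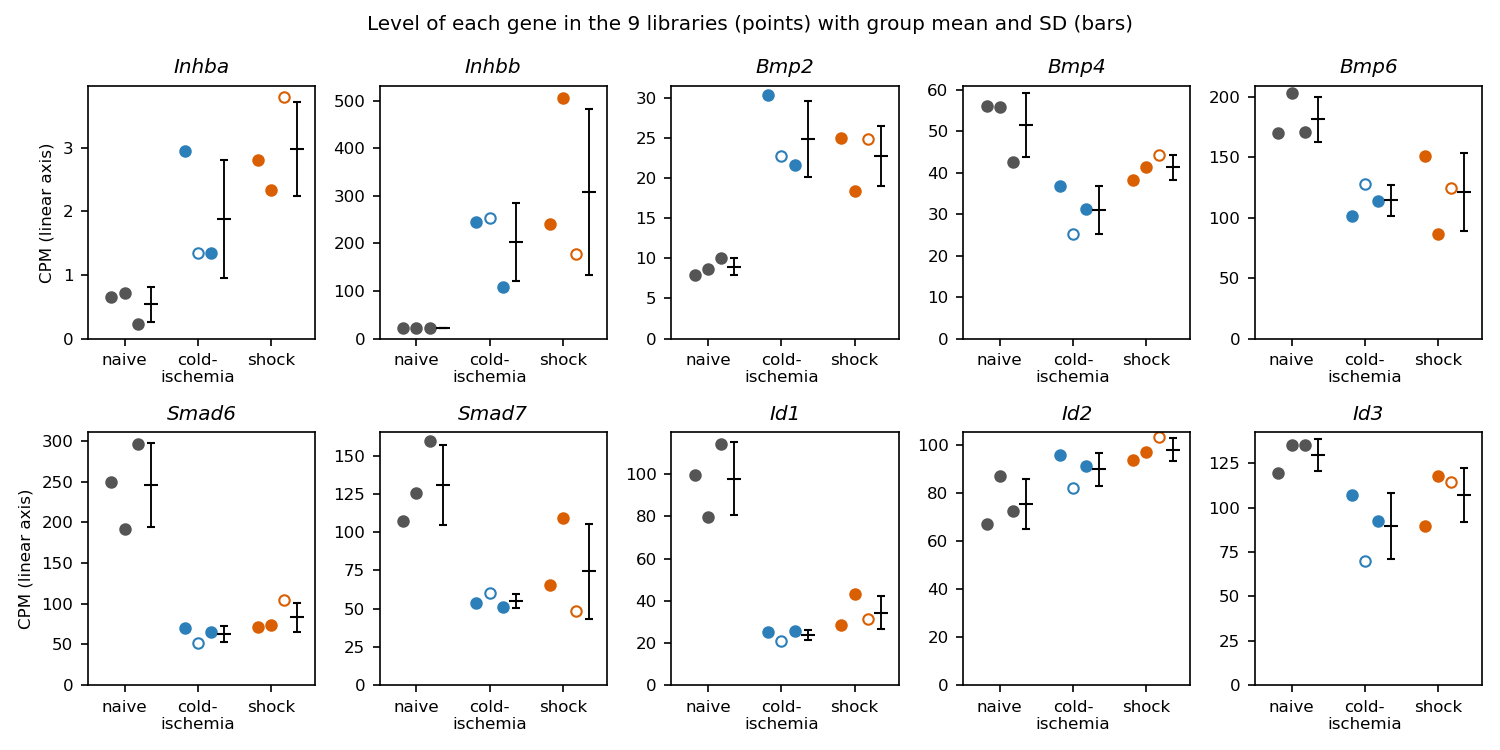
CPM (counts scaled to TMM-adjusted library size, linear axis from 0) of each gene in the 3 naive lungs, 3 cold-ischemia grafts and 3 shock grafts. Points are libraries, open points are the 2 libraries that the deposited tables place in the opposite graft group, and bars are the mean and SD of a group. Inhba, Inhbb and Bmp2 lie above the naive points in all 6 grafts, and Smad6 and Id1 lie far below them.

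Inhbb encodes the βB subunit of activin B and inhibin B (mm10 chr1:119415465-119422248, minus strand, protein coding). Its level was 21.1, 21.7 and 21.95 CPM in the naive lungs, 245, 254 and 107.8 CPM in cold-ischemia replicates 1 to 3, and 242, 507 and 178 CPM in shock replicates 1 to 3. Naive lungs were nearly equal and every graft was several times above them, with the highest value in shock replicate 2. All grafts were 11.6-fold above naive lungs (log2 fold change 3.53 ± 0.40 SE, edgeR adjusted p = 7.33e-05). The grafts differed among themselves by a ratio of 4.71 between the highest and the lowest, the widest range of the 10 genes, against 1.04 in naive lungs. Without shock replicate 2 the log2 fold change was 3.26.

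Inhba, for the βA subunit of activin A, was far less abundant (mm10 chr13:16011851-16027211, plus strand, protein coding). Naive lungs gave 0.658, 0.724 and 0.228 CPM, from 23, 16 and 9 reads. Cold-ischemia grafts gave 2.95, 1.35 and 1.34 CPM, and shock grafts 2.80, 2.34 and 3.79 CPM, from 29 to 84 reads per library. Every graft was above every naive lung, and cold-ischemia replicates 2 and 3 were the lowest grafts. All grafts were 4.50-fold above naive lungs (log2 fold change 2.17 ± 0.45, edgeR adjusted p = 0.00302). An antisense gene, Gm48444, and a pseudogene on the opposite strand, B230303A05Rik, overlap Inhba in GENCODE M21 and have no row in the tables. Whether the library kit kept strand is not stated, so reads of such overlapping genes may not be parted.

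Bmp2 encodes a BMP ligand (mm10 chr2:133552159-133562885, plus strand, protein coding). It was measured at 7.98, 8.73 and 10.1 CPM in naive lungs, 30.4, 22.7 and 21.6 CPM in cold-ischemia grafts and 25.0, 18.4 and 24.9 CPM in shock grafts. The lowest graft, shock replicate 2, was still above the highest naive lung. The rise was 2.66-fold (log2 fold change 1.41 ± 0.18, edgeR adjusted p = 0.000127).

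The other BMP ligands of the group went the other way. Bmp6, which in liver is a BMP that regulates hepcidin and is also made by endothelium, fell to 64.9% of the naive level (mm10 chr13:38345716-38499728, plus strand, protein coding). Its level was 170.5, 203 and 170.7 CPM in naive lungs, 102, 128 and 114 CPM in cold-ischemia grafts and 151, 86.9 and 125 CPM in shock grafts. Each graft was below the lowest naive lung, with shock replicate 1 closest to it and shock replicate 2 farthest (log2 fold change -0.62 ± 0.16, edgeR adjusted p = 0.0110). The call was lost without naive replicate 2 (adjusted p = 0.0640). The antisense gene 4930579J19Rik overlaps Bmp6 and has no row in the tables.

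Bmp4, a BMP ligand of lung branching and of lung mesenchyme and endothelium (mm10 chr14:46383520-46390669, minus strand, protein coding), also fell, but its groups overlapped on the CPM scale. Naive lungs gave 56.1, 55.9 and 42.7 CPM, cold-ischemia grafts 36.8, 25.2 and 31.2 CPM, and shock grafts 38.2, 41.4 and 44.2 CPM. Shock replicate 3 was above naive replicate 3, and the cold-ischemia grafts were below all naive lungs. The level in all grafts was 69.5% of that in naive lungs (log2 fold change -0.53 ± 0.15, edgeR adjusted p = 0.0144), and the call was lost without naive replicate 1 or naive replicate 2, at an adjusted p of up to 0.0763. On the deposited FPKM, which is scaled by library total, the grafts (11.5 to 20.0) lay below the naive lungs (23.4 to 32.1). Opposite-strand genes at Bmp4, Gm15217 and Gm15222, had at most 11 and 15 reads in any library.

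Smad6, whose protein blocks BMP receptor signalling in particular, had one of the largest falls (mm10 chr9:63953076-64022059, minus strand, protein coding). Its level was 249, 193 and 297 CPM in naive lungs, 70.6, 52.1 and 65.8 CPM in cold-ischemia grafts and 71.9, 74.3 and 104 CPM in shock grafts. The highest graft, shock replicate 3, lay well under the lowest naive lung. All grafts were at 29.4% of the naive level (log2 fold change -1.77 ± 0.17, edgeR adjusted p = 2.32e-05).

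Smad7, which inhibits TGF-β, activin and BMP receptors alike, fell to 48.9% of the naive level (mm10 chr18:75367529-75395935, plus strand, protein coding). Naive lungs gave 107.4, 126 and 160 CPM, cold-ischemia grafts 53.5, 60.2 and 51.4 CPM, and shock grafts 65.2, 109.2 and 48.7 CPM. The other 5 grafts were below all naive lungs, and shock replicate 2 was just inside the naive range. On the deposited FPKM all 6 grafts (10.6 to 23.4) lay below the naive lungs (29.7 to 42.1). The log2 fold change was -1.03 ± 0.22 (edgeR adjusted p = 0.00339), and -1.22 without shock replicate 2.

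Id1 showed the largest fall of the 10 genes (mm10 chr2:152736251-152737410, plus strand, protein coding). Its level was 99.7, 79.9 and 114 CPM in naive lungs, 25.0, 20.9 and 25.4 CPM in cold-ischemia grafts and 28.5, 43.1 and 31.5 CPM in shock grafts. All grafts lay below all naive lungs. By title the cold-ischemia grafts lay below the shock grafts, but the difference between them did not pass (edgeR adjusted p = 0.671). With the tables' grouping the graft groups overlapped, and the difference did not pass either (edgeR adjusted p = 0.727). The level in all grafts was 29.2% of that in naive lungs (log2 fold change -1.78 ± 0.16, edgeR adjusted p = 1.37e-05).

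Id3 changed far less than Id1 (mm10 chr4:136143497-136145755, plus strand, protein coding). It was at 119, 135.2 and 135.2 CPM in naive lungs, 107.1, 70.1 and 92.4 CPM in cold-ischemia grafts and 89.7, 118 and 114 CPM in shock grafts. All grafts were below the naive range, some by little, and the level in all grafts was 75.6% of the naive level (log2 fold change -0.40 ± 0.15, edgeR adjusted p = 0.0472). This call sat at the threshold: it was lost in 11 of 17 alternative settings, with an adjusted p of up to 0.148. Among these were leaving out each naive replicate in turn, cold-ischemia replicate 2 or 3, or shock replicate 1.

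Id2 was the one gene of the 10 that did not pass (mm10 chr12:25093801-25096092, minus strand, protein coding). Naive lungs gave 66.9, 86.7 and 72.2 CPM, cold-ischemia grafts 95.7, 82.1 and 91.1 CPM, and shock grafts 93.7, 96.8 and 103 CPM. The groups overlapped through naive replicate 2 and cold-ischemia replicate 2 (log2 fold change 0.32 ± 0.12, edgeR adjusted p = 0.0503). Id2 passed in 6 of 17 alternative settings, among them without naive replicate 2 (adjusted p = 0.0359) and without cold-ischemia replicate 2 (adjusted p = 0.0442), and with upper-quartile scaling its log2 fold change was 0.11. On the deposited FPKM (fragments scaled by library total and gene length), the mean was 68.8 ± 9.61 (SD, n = 3) in naive lungs, 66.2 ± 4.57 in cold-ischemia grafts and 70.7 ± 4.82 in shock grafts. The scales differ because TMM factors were 1.13 to 1.18 in naive libraries and 0.900 to 0.965 in grafts.

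**Figure D2:**
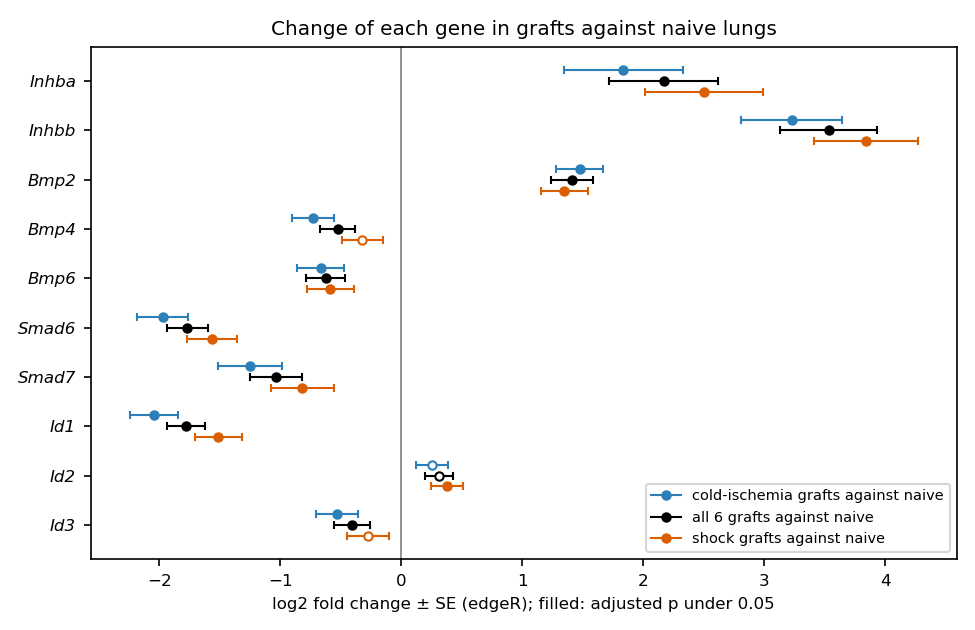
Log2 fold change ± SE (edgeR) of each gene in cold-ischemia grafts, all 6 grafts and shock grafts against naive lungs. Filled points have an adjusted p under 0.05. In all grafts Inhbb has the largest rise (3.53), Id1 and Smad6 have the largest falls (-1.78 and -1.77), and Id2 lies closest to 0 (0.32).

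Per gene length, the order of the 10 genes differed between naive lungs and grafts. In naive lungs the mean FPKM was 118 ± 6.73 for Id3, 97.8 ± 15.7 for Id1, 95.9 ± 18.8 for Smad6, 87.4 ± 9.85 for Bmp6 and 68.8 ± 9.61 for Id2 (SD, n = 3). The lower levels were 35.4 ± 6.30 for Smad7, 29.0 ± 4.91 for Bmp4, 5.89 ± 0.0694 for Inhbb, 2.91 ± 0.279 for Bmp2 and 0.320 ± 0.165 for Inhba. Ranges overlapped between neighbours from Id3 down to Bmp6 and between Smad7 and Bmp4, so these were not parted, while the other neighbours did not overlap. In the 6 grafts the median FPKM was 73.0 for Id3 (51.7 to 84.3), 68.9 for Id2 (61.0 to 75.9), 51.8 for Inhbb (24.4 to 109.1) and 46.9 for Bmp6 (33.0 to 56.5). Smad6 followed at 21.7 (16.6 to 32.8), Id1 at 21.6 (17.0 to 34.0), Bmp4 at 16.4 (11.5 to 20.0), Smad7 at 12.4 (10.6 to 23.4), Bmp2 at 6.18 (4.75 to 7.77) and Inhba at 1.19 (0.652 to 1.81). Inhbb thus stood below Bmp4 in naive lungs and above it in every graft, and Id1 stood above Id2 in each naive lung and below it in each graft.

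Ratios of FPKM within a library, which do not depend on library scaling, showed a shift between some relatives and not between others. The ratio of Id2 to Id1 was 0.613, 0.991 and 0.577 in naive lungs and 2.05 to 3.59 in grafts. That of Id3 to Id1 was 1.07 to 1.54 in naive lungs and 2.48 to 3.89 in grafts. Bmp4 exceeded Bmp2 by 12.1, 11.02 and 7.29 times in naive lungs and by 1.91 to 3.87 times in grafts. None of these 3 ratios overlapped between naive lungs and grafts. In contrast, the ratio of Smad6 to Smad7 was 2.20 to 3.35 in naive lungs and 0.979 to 3.08 in grafts, and that of Inhbb to Inhba was 13.8 to 44.4 in naive lungs and 21.6 to 99.6 in grafts, so both overlapped.

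In the lists of other pathway genes, 67 genes were tested, of which 17 were higher and 18 lower in all grafts against naive lungs. The shares over all genes tested, to be read beside each list, were 22.1% higher and 19.7% lower. Of 11 other ligands, 3 were higher and 4 lower (median log2 fold change -0.36). Gdf15, a distant superfamily member induced by stress, rose from 1.61 ± 0.696 CPM in naive lungs to 70.4 ± 38.7 CPM in grafts (log2 fold change 5.43 ± 0.58, edgeR adjusted p = 4.75e-05). Tgfb1, for TGF-β1, rose from 92.1 to 192 CPM (1.06 ± 0.14, edgeR adjusted p = 0.000181). Gdf2, which encodes BMP9, a ligand of the endothelial receptor ALK1 that is made mainly in liver, had 45, 35 and 51 reads in the naive lungs and 7 reads in all 6 grafts together, with 3 grafts at 0 (edgeR adjusted p = 0.000117).

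Of 15 receptors and co-receptors, 3 were higher and 5 lower (median -0.10). The higher ones were the TGF-β receptor genes Tgfbr1 (log2 fold change 0.78 ± 0.14, edgeR adjusted p = 0.00115) and Tgfbr2 (0.41 ± 0.15, edgeR adjusted p = 0.0413). The activin receptor gene Acvr1b was the other (0.76 ± 0.24, edgeR adjusted p = 0.0251). The lower ones included the co-receptors Rgma, from 34.2 to 10.3 CPM (log2 fold change -1.73 ± 0.15, edgeR adjusted p = 1.09e-05), and Rgmb, from 43.6 to 23.7 CPM (-0.88 ± 0.11, edgeR adjusted p = 0.000109). The activin type II receptor gene Acvr2b was also lower, from 6.80 to 2.79 CPM (-1.30 ± 0.19, edgeR adjusted p = 0.000343). Acvrl1, which encodes ALK1, had a log2 fold change of -0.61 and an edgeR adjusted p of 0.0128. The BMP type II receptor gene Bmpr2, at 1032 CPM in naive lungs and 965 CPM in grafts, did not pass (-0.10 ± 0.20, edgeR adjusted p = 0.724).

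Of 15 extracellular binders and antagonists, 1 was higher and 1 lower (median -0.31). Fstl3, whose protein binds activins, rose from 10.7 to 17.97 CPM (log2 fold change 0.74 ± 0.15, edgeR adjusted p = 0.00281), and the BMP antagonist gene Chrd fell from 2.94 to 1.66 CPM (-0.83 ± 0.23, edgeR adjusted p = 0.0135). The call of Chrd was lost without naive replicate 1 (adjusted p = 0.0611) or naive replicate 2 (adjusted p = 0.0534). The activin antagonist gene Fst gave 0.46 ± 0.42 (edgeR adjusted p = 0.409), and Crim1, for a membrane protein that binds BMPs, gave -0.31 ± 0.13 (edgeR adjusted p = 0.0774).

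Of the 6 signalling Smads, 4 were higher and 1 lower (median 0.61). Smad3, of the activin and TGF-β branch, rose from 52.0 to 120 CPM (log2 fold change 1.20 ± 0.14, edgeR adjusted p = 9.42e-05). On the BMP branch, Smad1 rose from 32.9 to 72.8 CPM (1.14 ± 0.18, edgeR adjusted p = 0.000490), whereas Smad9 fell from 18.6 to 5.20 CPM (-1.84 ± 0.30, edgeR adjusted p = 0.000724). The shared Smad4 and the activin-branch Smad2 were higher at 0.79 and 0.43.

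Among 12 intracellular brakes and corepressors, a list that also holds the ALK1 target Tmem100, 6 were higher and 2 lower (median 0.52). The corepressor genes Tgif1 and Skil, which repress SMAD-dependent transcription, rose from 12.5 to 68.9 CPM and from 80.7 to 360 CPM (log2 fold changes 2.45 ± 0.18 and 2.16 ± 0.16). Tmem100, a gene of endothelium, fell from 543 to 74.6 CPM (-2.86 ± 0.38, edgeR adjusted p = 0.000214), and Bambi, which encodes a pseudoreceptor, fell by 0.96 on the log2 scale. Of 8 other ID-related genes, 0 were higher and 5 lower (median -0.76). Hey1 and Hey2, which are targets of Notch and of BMP9, fell from 87.1 to 9.22 CPM (-3.25 ± 0.25) and from 4.19 to 1.46 CPM (-1.53 ± 0.25), and Atoh8 fell from 16.9 to 8.05 CPM (-1.10 ± 0.22, edgeR adjusted p = 0.00240). Id4, the remaining ID gene, was lower at -0.97, and Tcf3, for an E protein that ID proteins bind, at -0.55. With upper-quartile scaling, which moved the median of all genes from -0.05 to -0.25, the receptors were 1 higher and 5 lower and the brakes and corepressors 4 higher and 3 lower. The other ligands were then 2 higher and 4 lower, the binders and antagonists 1 and 2, and the signalling Smads 3 and 1. Over all genes, 7718 passed with this scaling, 34.8% of them higher, against 6620 and 52.8% in the main fit.

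**Figure D3:**
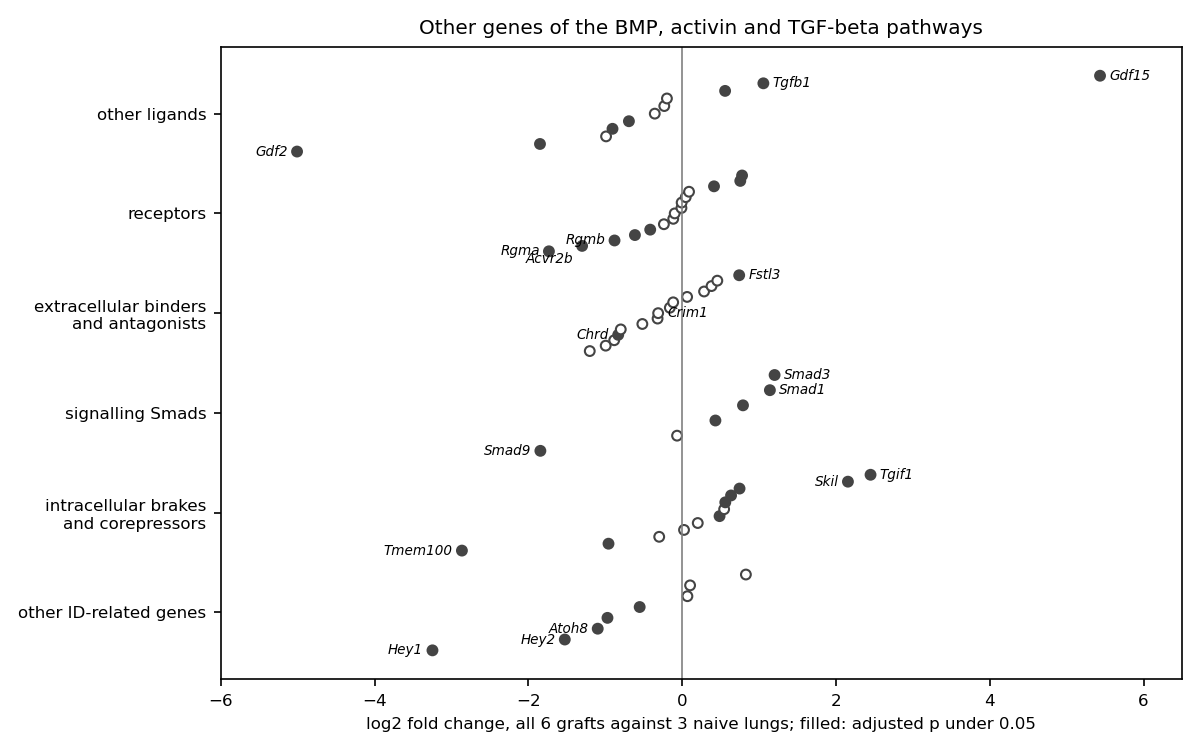
Log2 fold change in all 6 grafts against the 3 naive lungs (edgeR) of the 67 other pathway genes tested, in 6 lists ordered by role. Each point is a gene, filled points have an adjusted p under 0.05, and labels are genes with the smallest adjusted p of a list. Gdf15, Tgif1 and Skil lie far to the right, and Gdf2, Hey1 and Tmem100 far to the left.

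Marker lists of the cell types in lung were read in the same comparison, in which 41.8% of all genes passed. Of 18 endothelial markers, 2 were higher and 10 lower in all grafts (median -0.73), and their summed level was 8154 to 8310 CPM in naive lungs and 3802 to 6545 CPM in grafts. With upper-quartile scaling 0 were higher and 11 lower, and of all genes called 34.8% were higher, against 52.8% in the main fit. In the main fit the changes were unequal: the transcription factor genes Sox17 and Sox18 gave -2.73 and -3.13. Pecam1 and Cdh5, for adhesion molecules of endothelial junctions, gave -0.32 (edgeR adjusted p = 0.175) and 0.25 (edgeR adjusted p = 0.315). The 2 higher markers were Esam (0.66, edgeR adjusted p = 0.0134) and Cldn5 (0.59, edgeR adjusted p = 0.0223). Abundant markers weigh most in the sum: Calcrl fell from 1193 to 291 CPM and Ptprb from 1386 to 687 CPM, while Cdh5 went from 1207 to 1432 CPM. All 14 neutrophil markers were higher, with sums of 106.9 to 146 CPM in naive lungs and 1434 to 3598 CPM in grafts. Markers of fibroblasts, smooth muscle and pericytes summed to 4555 to 6652 CPM in naive lungs and 2356 to 4647 CPM in grafts, with 1 higher and 3 lower of 15. Monocyte and macrophage markers summed to 6253 to 7056 CPM in naive lungs and 5130 to 8156 CPM in grafts (4 higher and 2 lower of 14), and epithelial markers were 2 higher and 1 lower of 12. The sums of the fibroblast, monocyte and epithelial lists each overlapped between naive lungs and grafts. In these lists the share that passed was near or below that of all genes. Mesothelial markers were 1 higher and 7 lower of 8. Bnc1 and Wt1, of the mesothelial list, had no read in at least 1 library, and no other marker was at 0. In whole lung, fewer cells of a type and less RNA per cell cannot be told apart, and the part of these marker changes in the results for the 10 genes was not tested.

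**Figure D4:**
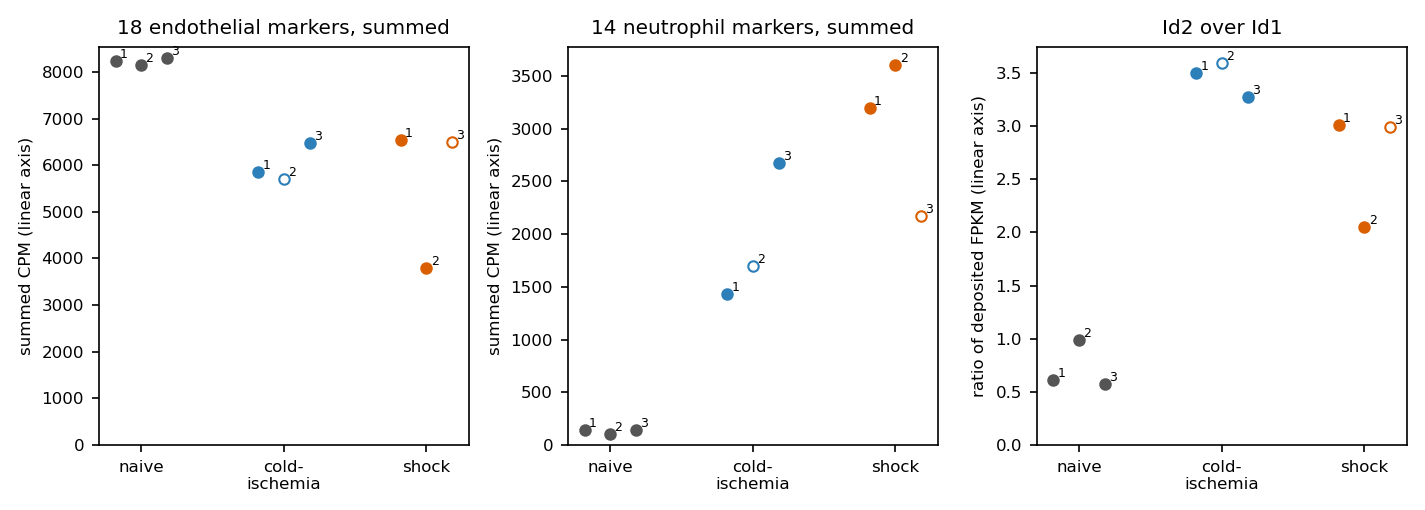
Summed CPM of 18 endothelial and of 14 neutrophil markers, and the ratio of Id2 to Id1 on the deposited FPKM scale, in each library (linear axes from 0). Points are libraries numbered by replicate, and open points are the 2 libraries of disputed group. Shock replicate 2 has the lowest endothelial sum (3802 CPM) and the highest neutrophil sum (3598 CPM). The Id2 to Id1 ratio is under 1 in the naive lungs and at least 2.05 in the grafts.

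The graft groups were also compared with naive lungs separately. These comparisons share their naive libraries, so their values are given side by side. In cold-ischemia grafts 3 genes were higher and 6 lower (30.6% of all genes passed), and in shock grafts 4 were higher and 4 lower (39.9% of all genes passed). For Id1 the log2 fold changes were -2.04 ± 0.20 in cold-ischemia grafts and -1.51 ± 0.19 in shock grafts, and for Smad6 -1.97 ± 0.21 and -1.56 ± 0.21. For Inhbb they were 3.23 ± 0.42 and 3.84 ± 0.43, for Inhba 1.84 ± 0.49 and 2.50 ± 0.49, and for Bmp2 1.48 ± 0.19 and 1.35 ± 0.19. Without cold-ischemia replicate 1 the Inhba value in cold-ischemia grafts fell to 1.36 and its call was lost (edgeR adjusted p = 0.0766). Smad7 gave -1.25 ± 0.26 and -0.82 ± 0.26, and Bmp6 -0.67 ± 0.19 and -0.58 ± 0.19. The Bmp6 call in cold-ischemia grafts was lost without naive replicate 2, cold-ischemia replicate 1 or cold-ischemia replicate 3, at an adjusted p of up to 0.0975. In shock grafts it was lost without any one of the naive replicates or of shock replicates 2 and 3, at up to 0.123. The Smad7 call in shock grafts was lost without naive replicate 2 or 3 or shock replicate 1 or 3, at up to 0.108.

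Bmp4 and Id3 passed in cold-ischemia grafts (log2 fold changes -0.73 ± 0.17 and -0.53 ± 0.17, edgeR adjusted p = 0.00881 and 0.0388) but not in shock grafts (-0.32 ± 0.17 and -0.28 ± 0.17, edgeR adjusted p = 0.160 and 0.223). Id2 passed in shock grafts (0.38 ± 0.13, edgeR adjusted p = 0.0433) but not in cold-ischemia grafts (0.25 ± 0.13, edgeR adjusted p = 0.183). With the grouping of the deposited tables this order turned in edgeR for Bmp4 and Id3. They then passed in shock grafts (-0.56 and -0.49) and not in cold-ischemia grafts (-0.46 and -0.31), and Id2 passed in neither. The authors' deposited comparisons use that grouping but gave other calls. There Bmp4 passed in cold-ischemia grafts (-0.44, adjusted p = 0.0341) and not in shock grafts (-0.51, adjusted p = 0.0774). Id3 passed in neither (adjusted p = 0.0634 and 0.0982). Id2 passed there in cold-ischemia grafts (adjusted p = 0.0274) and not in shock grafts (adjusted p = 0.162). The cold-ischemia call of Id3 was also lost when any one naive replicate, or cold-ischemia replicate 2 or 3, was left out (adjusted p of up to 0.125). That of Id2 in shock grafts was lost in 13 of 17 alternative settings. The number of the 10 genes that passed in shock grafts was 5 without naive replicate 3, without shock replicate 3, and without both libraries of disputed group. Over all genes, 5257, 6635 and 6766 passed in these settings, against 6319 in the main fit.

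What donor shock added to storage and reperfusion was tested directly between the graft groups. None of the 10 genes passed, and of all genes tested 0 did (0.0%), with 1152 genes, 2 of the 10 among them, at an unadjusted p under 0.05 in edgeR. DESeq2 called 6 genes, none of them of the 10, and had 1323 at an unadjusted p under 0.05. The median log2 difference, shock minus cold ischemia, was 0.41 for the 10 genes and 0.01 over all genes, but -0.095 and -0.004 with the tables' grouping, so its sign rests on the 2 disputed libraries. The differences included 0.53 ± 0.19 for Id1, 0.41 ± 0.17 for Bmp4, 0.41 ± 0.20 for Smad6, 0.43 ± 0.26 for Smad7 and 0.61 ± 0.38 for Inhbb, with edgeR adjusted p between 0.671 and 0.687. Inhba gave 0.67 ± 0.45, Id3 0.26 ± 0.17, Id2 0.13 ± 0.13, Bmp6 0.08 ± 0.19 and Bmp2 -0.13 ± 0.19. Without shock replicate 2 the difference was 0.05 for Inhbb and 0.05 for Smad7. Leaving out 1 library gave 0.45 (without shock replicate 3) to 1.14 (without cold-ischemia replicate 1) for Inhba.

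With the tables' own grouping, 124 genes (0.783%) passed between the graft groups, and again none of the 10. Of the 10, Inhbb and Smad7 then had the largest differences, 0.92 ± 0.32 (edgeR adjusted p = 0.167) and 0.61 ± 0.22 (edgeR adjusted p = 0.179), while Id1 had 0.17 ± 0.24. Among the other pathway genes, Fst (1.60 ± 0.25, edgeR adjusted p = 0.0219) and Tmem100 (-1.28 ± 0.25, edgeR adjusted p = 0.0480) passed with this grouping. In the authors' deposited table for the same comparison, Inhbb had a log2 fold change of 0.70 with an adjusted p of 0.137 and Smad7 one of 0.53 with an adjusted p of 0.175. The other 8 genes had adjusted p-values of 0.641 to 0.901 in the authors' deposited table.

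Other genes with the most similar profiles were sought for the members with the largest rise and the largest fall, by the root mean square difference of log2 CPM, centred per gene, over the 9 libraries and 12285 genes. Closest to Inhbb were Tgm1, a transglutaminase gene (0.184), Slc26a4, an anion exchanger gene (0.212), and Ptges, the gene of an inducible prostaglandin E synthase (0.227). Their log2 fold changes in all grafts were 3.76, 3.45 and 3.69. Closest to Id1 were Xkr8, a phospholipid scramblase gene (0.214), Bmf, a pro-apoptotic gene of the BCL2 family (0.224), and Gtpbp3, a gene of mitochondrial tRNA modification (0.228), with log2 fold changes of -1.54, -1.80 and -1.36.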

How the data were processed

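RNA-seq of 9 whole left lungs was analysed from 3 deposited tables, 1 per pair of groups. Per the file headers they hold a raw read count per gene. The authors also deposited a normalized signal (count divided by a size factor per library), which was not tested, FPKM, used here for levels between genes, and the log2 fold change and p-value of their own comparisons. The tools named are DESeq2, edgeR, HTSeq, STAR and STAR-Fusion, with the build mm10, per the submitters' processing notes. Versions, the role of each tool and the annotation are not given in the sources used here. All 9 libraries are listed in more than 1 table, with 0 counts that differ. The closest pair of libraries differed by a chi-square of 15.0 per degree of freedom.

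Genes were tested in edgeR 4.0.16 by quasi-likelihood (R 4.3.3; two-sided, TMM, filterByExpr, 15834 genes, 1 mean per group over all 9 libraries, 6 residual degrees of freedom, Benjamini-Hochberg adjustment over all genes, threshold 0.05). CPM uses TMM-scaled library sizes. "All grafts" is the mean of the graft group means. Alternatives were DESeq2 1.42.0, other scalings, no filter, a replicate block, each library left out and the tables' grouping. The members and lists were chosen with earlier results of these data known. Named genes are the 10 members, the 3 genes of each pathway list with the smallest adjusted p in all grafts, and the 3 genes most like Inhbb and Id1 with a mean of at least 2 CPM. Other genes serve as examples chosen after their values were seen.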

Additional observations from a re-analysis of the deposited data

Results flagged for a closer look

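Smad7 in shock replicate 2 lay apart from the other 5 grafts. Its level there was 109.2 CPM against 48.7 to 65.2 CPM in the others, and on log2 CPM the gap to the next graft was 0.64 of the whole range; this is above the 95% limit of Dixon's test for 6 samples. Chance alone gives such a gap in about 1 in 20 groups, and 10 genes were examined. The same library had the highest Inhbb (507 CPM), the lowest Bmp6 (86.9 CPM) and the lowest summed endothelial markers (3802 CPM). Among grafts it also had the lowest fibroblast, smooth muscle and pericyte sum (2356 CPM) and monocyte and macrophage sum (5130 CPM). Its neutrophil sum was the highest (3598 CPM). The part of these marker levels in the Smad7 value was not tested.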

How the results depend on the processing

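Over 17 alternative settings of all grafts against naive lungs, Inhba, Inhbb, Bmp2, Smad6, Smad7 and Id1 kept their direction and their call in each, with log2 fold changes of 3.26 to 3.68 for Inhbb and -1.98 to -1.65 for Id1. Upper-quartile scaling lowered the share of higher calls from 52.8% to 34.8% in all grafts, from 57.1% to 39.3% in cold-ischemia grafts and from 55.1% to 36.5% in shock grafts. In shock grafts against naive lungs 8 of the 10 genes passed, and 5 to 8 when 1 library was left out. The count was 5 without both disputed libraries and 5 with only the 6 libraries of the comparison. Over all genes, 6319 passed in the main fit and 4613 to 6635 when 1 library was left out. Without both disputed libraries 6766 passed, and 5844 with only the 6 libraries. Between the graft groups 0 genes passed, but 6 with DESeq2, 124 with the grouping of the tables and 39 without both disputed libraries. That grouping reversed the sign of Inhba (-0.32), Bmp4 (-0.10), Smad6 (-0.28), Id2 (-0.090) and Id3 (-0.18), and leaving out 1 library gave -0.23 to 0.039 for Bmp2 and -0.11 to 0.27 for Bmp6. The cause was not tested. No pairing of samples by replicate number was seen, but a check with 3 libraries per group cannot exclude it. Correlations between groups were -0.39 to 0.10 for same-numbered libraries and -0.36 to 0.32 for differently numbered ones. A replicate block gave 6111 called genes and 8 of the 10 in all grafts. The depth limits Inhba most, with 9 to 23 reads in a naive library.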
